A study of Saccharomyces cerevisiae with 6 samples.

Results

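The 10 genes described here encode the peroxisomal fatty acid oxidation pathway of budding yeast: POX1 (YGL205W), FOX2 (YKR009C), POT1 (YIL160C), PXA1 (YPL147W), PXA2 (YKL188C), FAA2 (YER015W), ECI1 (YLR284C), DCI1 (YOR180C), SPS19 (YNL202W) and PEX11 (YOL147C). They were picked by name and function, with no measured value in the rule, and are 10 of the 6572 features counted in S. cerevisiae BY4741, of which 5898 have a coding sequence in the S288C reference R64. The data are 3 RNA sequencing libraries of BY4741, a haploid laboratory strain of S288C background with deletions in HIS3, LEU2, MET17 and URA3, from pellets of cells in mid-exponential growth after 6 h in a medium that the labels call ILM. The 3 libraries of the other strain in the series, S. boulardii Biocodex, share 0 feature identifiers with BY4741, so the genes were not compared between strains and no treated or untreated group exists for them. The labels do not say whether the BY4741 libraries came from separate cultures, so the spread between them may be technical.

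In S. cerevisiae, beta-oxidation of fatty acids takes place only in peroxisomes. Fatty acids enter as acyl-CoA through an ABC transporter or are activated inside, and each turn of the cycle shortens the chain and releases acetyl-CoA. The genes are known to be repressed by glucose, derepressed when glucose runs out and strongly induced by oleate, through the factors Oaf1 and Pip2, which bind the oleate response element as a pair, and through Adr1.

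The libraries of replicates 1, 2 and 3 held 18707708, 5181546 and 4581414 counted reads. LEU2, URA3 and MET17, deleted in the strain, had 0 reads in each of the 3 libraries, which allows up to 0.655 CPM (reads scaled to the total of counted reads) in the smallest, while HIS3, of which the strain's allele lacks a part, had 925, 196 and 285 reads. Counts varied by more than counting error. Between pairs of libraries, chi-square per degree of freedom over features ran from 46.4 to 64.1, where 1 library sequenced for both would give a value near 1. Genes could also be missing from a single library. Among genes expected at 20 reads or more from the other libraries, 34 had 0 reads in replicate 1, 98 in replicate 2 and 65 in replicate 3.

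The sequences below are shown because the same element recurs in front of nearly the whole gene group. They are the oleate response elements found within 500 bases before the start codons in R64, each read 5′ to 3′ on the strand where it matched, with the fixed letters in capitals. The element was searched on both strands as CGGNNNTNA followed by 9 to 12 bases and CCG. POT1, with the highest level of the group, has its element at chrIX:41610-41632, and DCI1, the gene that varied most between libraries, at chrXV:675286-675309.
POT1: CGGggaTaAtagtattaacaCCG
PEX11: CGGcatTtAtctcggagaacCCG
SPS19: CGGcgtTaAgtatatcaaactCCG
ECI1: CGGgcaTaAgaaatattattCCG
DCI1: CGGctgTaAgcgcgctaaactCCG
FAA2: CGGcgtTaAagactgacggtCCG
PXA2: CGGcgtTaAttacaactatcaCCG
POX1, nearer element: CGGtcaTtAgcggctaatagCCG
POX1, farther element: CGGagtTtAatcaactaataCCG
FOX2, nearer element: CGGcgtTaAcaaatttccCCG
FOX2, farther element: CGGactTaAaactaggcttCCG

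An element lay within 500 bases of the start codon in 9 of the 10 genes, against 1.88% of 6000 promoters of R64. Within the window from 250 bases before to 50 bases after the start of the coding sequence it was found in 6 of 10, against 0.900% of 6001 promoters. The 6 are POT1, FAA2, ECI1, DCI1, SPS19 and PEX11, whose elements begin between 135 and 188 bases before the start codon. POX1 and FOX2 each held 2 elements, the nearer ones beginning 275 and 271 bases before the start codon, and PXA2 held 1 that begins at 272 bases. No match was found for PXA1, which says only that these letters are not in this window. The elements of POT1, DCI1 and the nearer one of POX1 matched on both strands. With T and A left free the counts of genes were unchanged at 6 and 9, while 4.10% and 8.83% of promoters matched. The consensus was in part drawn from promoters of this gene group, so the matches are a description and not independent evidence of binding.

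**Figure D1:**
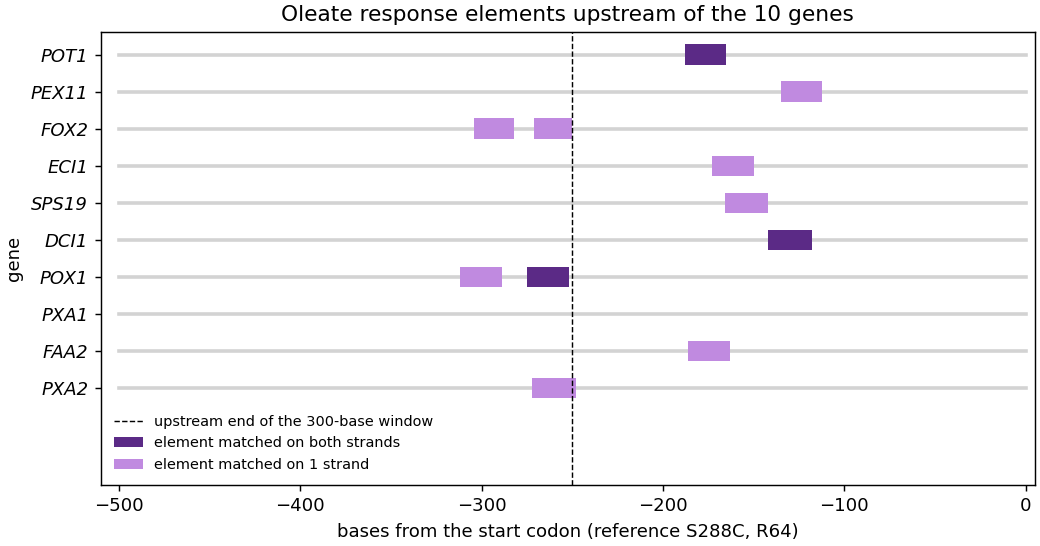
Position of oleate response elements in the 500 bases before the start codon of each gene, in bases, in the reference S288C R64. Dark bars are elements that matched on both strands and light bars those that matched on 1. Elements of 6 genes lie inside the 300-base window, those of POX1, FOX2 and PXA2 begin between 271 and 312 bases before the start codon, and PXA1 has none.

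The core TTGGAG or TTGGGG, bound by Adr1, was present on either strand of the 300-base window in 9 of the 10 genes, PXA2 being the exception, against 16.4% of 6001 promoters. The windows of POT1 (chrIX:41395-41694, minus strand) and SPS19 (chrXIV:259328-259627, plus strand) are given in full. Each holds an oleate response element at a like distance from the start codon, matched on both strands for POT1 and on 1 for SPS19. Both genes were lowest in replicate 2 and highest in replicate 3. The highest library exceeded the lowest by 1.22-fold for POT1 and by 2.94-fold for SPS19. The oleate response element and the start codon are in capitals.
POT1: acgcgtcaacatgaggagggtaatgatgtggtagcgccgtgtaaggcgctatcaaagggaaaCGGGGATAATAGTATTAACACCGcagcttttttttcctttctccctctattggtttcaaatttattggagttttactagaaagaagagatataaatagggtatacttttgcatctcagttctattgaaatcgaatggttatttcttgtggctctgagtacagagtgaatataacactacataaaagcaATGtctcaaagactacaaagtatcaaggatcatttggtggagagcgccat
SPS19: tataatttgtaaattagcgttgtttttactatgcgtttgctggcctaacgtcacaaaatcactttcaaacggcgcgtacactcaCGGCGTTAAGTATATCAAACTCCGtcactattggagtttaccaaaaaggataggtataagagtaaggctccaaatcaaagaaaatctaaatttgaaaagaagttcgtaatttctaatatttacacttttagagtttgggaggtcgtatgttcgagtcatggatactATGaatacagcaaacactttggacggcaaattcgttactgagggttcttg

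The coding sequences also differ in how they end. Many proteins of the peroxisomal matrix carry a targeting signal of type 1, a C-terminal tripeptide of which serine, lysine and leucine is the textbook form, and a few carry an N-terminal signal of type 2. The ends of 5 genes are printed, with the last 3 codons in capitals and the stop codon in lower case.
FOX2: TCTAAACTAtaa
SPS19: TCTAAATTAtaa
FAA2: GAAAAGCTTtag
ECI1: CATCGTTTAtga
DCI1: CACAAGTTAtaa
FOX2 and SPS19 encode serine, lysine and leucine, as do 0.217% of 6002 coding sequences. FAA2, ECI1 and DCI1 end in a basic residue and leucine behind another residue, so that 5 of the 10 genes share a basic residue and leucine, against 2.12% of coding sequences. POT1 matched the type 2 pattern in its first 40 codons, as did 7 of the 6002 coding sequences in all. PXA1, PXA2 and PEX11, which encode membrane proteins, matched neither pattern, and neither did POX1. The genes were picked for a peroxisomal pathway, and the looser end was added after the data were seen. These shares therefore describe the group and are not independent evidence of targeting.

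Per kb of coding length, fatty acid entry and activation came out at the low end of the group. Levels are given as RPKM, CPM divided by the coding length in kb, which allows genes of unlike length to be compared. In CPM, not scaled for length, PXA1 had a mean of 146.6 and was below only POT1 and FOX2. PXA2 (97.5 CPM) and FAA2 (92.9 CPM) were then above SPS19 (90.7 CPM) and DCI1 (58.5 CPM) and below the other genes. The median gene stood at 45.2 ± 1.504 RPKM and the 75th percentile of genes at 123 ± 3.86 RPKM (SD, n = 3 each). In bulk RNA, fewer cells that express a gene and less RNA per cell cannot be told apart.

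PXA1 and PXA2 encode the subunits of the ABC transporter that brings long-chain acyl-CoA into the peroxisome. PXA1 had 51.2, 50.7 and 66.5 RPKM in replicates 1, 2 and 3, each above the median gene. PXA2 had 39.0, 28.2 and 47.0 RPKM, the lowest mean of the 10 genes. PXA1 exceeded PXA2 in 3 of 3 libraries, by 1.49-fold on average (log2 ratio 0.58 ± 0.24, SD, n = 3), from 1.31-fold to 1.80-fold over the libraries. Their coding sequences are 48.7% identical over the alignment, and neither shares a 50-mer with another gene.

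FAA2, the acyl-CoA synthetase that activates medium-chain fatty acids at the peroxisome, had 40.2, 44.5 and 40.04 RPKM and was below the median gene in each library. In replicate 2 the gap, 44.47 against 44.57 RPKM, was within counting error. FAA2 was the steadiest gene of the group, with a highest library only 1.11 times the lowest. FAA1 and FAA4 encode the main synthetases for long-chain fatty acids taken up from outside. The level of FAA2 was lower than that of FAA1 by 2.48-fold (log2 ratio -1.31 ± 0.15) and lower than that of FAA4 by 13.0-fold (log2 ratio -3.70 ± 0.24, SD, n = 3 each), in 3 of 3 libraries. FAA2 overlaps the gene BUD25 on the opposite strand by 160 bp in R64, and BUD25 had 0, 8 and 0 reads. Whether the authors' counting dropped reads of that stretch is not given in the sources used here.

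Of the 3 enzymes of the cycle itself, the oxidase of the opening step had the lowest level per kb and the thiolase of the last step the highest, in 3 of 3 libraries. POX1, the acyl-CoA oxidase of the opening step, which passes electrons to oxygen and makes hydrogen peroxide, had 56.9, 38.2 and 90.4 RPKM. FOX2, the multifunctional enzyme that catalyses the hydration and the following dehydrogenation, had 127, 104 and 147 RPKM. POT1, the thiolase that releases acetyl-CoA, had 279, 241 and 295 RPKM. POT1 lay between the 86.6th and 88.4th percentile of all genes, and FOX2 between the 71.8th and 77.9th.

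POX1 spanned the 46.0th to the 67.1st percentile and so crossed the median gene, being below it in replicate 2 only. FOX2 exceeded POX1 by 2.14-fold (log2 ratio 1.10 ± 0.37), POT1 exceeded FOX2 by 2.17-fold (1.12 ± 0.11) and POT1 exceeded POX1 by 4.65-fold (2.22 ± 0.48, SD, n = 3 each). Each ratio had the same direction in 3 of 3 libraries, and POT1 over FOX2 ran from 2.01-fold to 2.33-fold, the narrowest range of the 3. The difference between POT1 and FOX2 rests on the scaling for coding length, since in reads not scaled for length they were level, at a mean of 340.7 and 340.4 CPM (log2 ratio 0.011), and POT1 over POX1 was then 1.38 on the log2 scale. CTA1, the peroxisomal catalase that destroys hydrogen peroxide, exceeded POX1 by 3.38-fold (log2 ratio 1.76 ± 0.27, SD, n = 3), with CTA1 at 199, 153 and 250.8 RPKM.

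**Figure D2:**
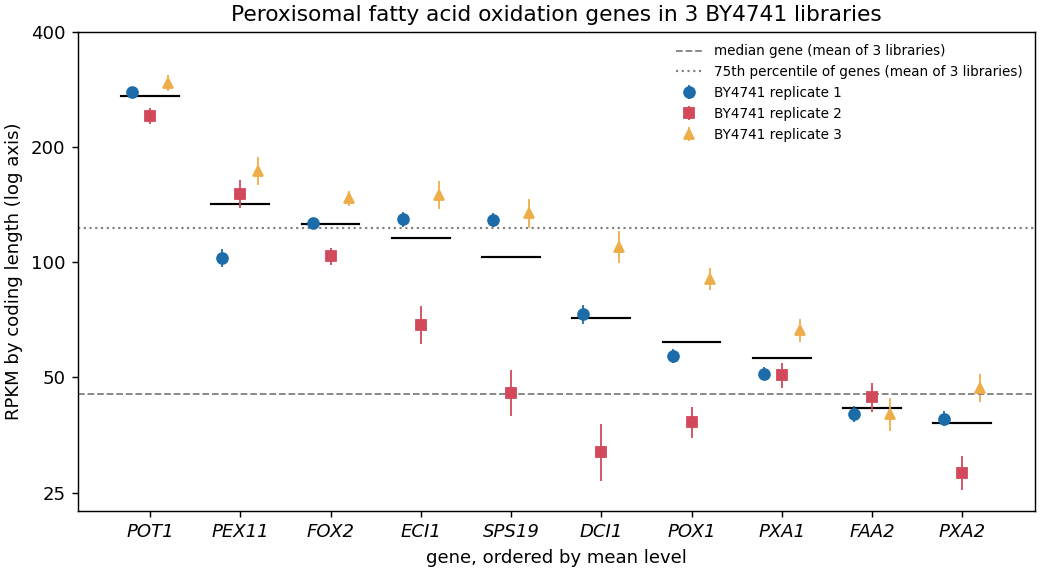
RPKM of the 10 genes (log axis) in BY4741 replicates 1, 2 and 3, ordered by mean level. Vertical bars are exact 95% Poisson intervals, which cover counting error only, short black lines are means, and grey lines mark the median gene and the 75th percentile. POT1 stands alone at 241 to 295 RPKM, and the replicate 2 values of ECI1, SPS19 and DCI1 lie far under those of the other 2 libraries. POX1 rises from 38.2 RPKM in replicate 2 to 56.9 in replicate 1 and 90.4 in replicate 3.

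Unsaturated fatty acids need auxiliary enzymes that move or remove double bonds, and their 3 genes each differed over 2-fold between libraries, as did POX1. ECI1, the enoyl-CoA isomerase required for growth on oleate, had 130, 68.7 and 150 RPKM. DCI1, its paralog annotated as a dienoyl-CoA isomerase, had 73.1, 31.9 and 110 RPKM. SPS19, the dienoyl-CoA reductase, had 129, 45.7 and 134 RPKM. For each of these genes replicate 2 was lower than replicates 1 and 3.

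ECI1 exceeded DCI1 by 1.73-fold (log2 ratio 0.79 ± 0.33, SD, n = 3), from 1.37-fold to 2.15-fold over the libraries. The paralogs' coding sequences are 55.3% identical and share no 50-mer, so exact reads of 50 bases or more would differ between them in R64. How the authors' counting assigned reads was not tested. DCI1 in replicate 2 rested on 135 reads, whose exact 95% Poisson interval spans 26.8 to 37.8 RPKM and does not reach the values of the other libraries.

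SPS19 lies 300 bp from SPS18, a gene named like it for sporulation, on the opposite strand in R64, so that the stretch between them serves as the upstream region of both. SPS18 was much lower, at 8.23, 1.496 and 36.0 RPKM (139, 7 and 149 reads), and like SPS19 it was lowest in replicate 2. The count files also list YNL203C, which the R64 annotation does not hold, with 180, 82 and 18 reads, and whether it overlaps SPS19 was not tested. YNL203C was picked out after its values were seen.

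PEX11, the membrane protein that promotes peroxisome proliferation and division, ranked second by mean level, at 103, 151 and 173 RPKM. In replicate 1, PEX11 was also below ECI1, SPS19 and FOX2, which had 130, 129 and 127 RPKM there. It was the only one of the 10 genes lowest in replicate 1. PEX11 exceeded its family members PEX25 by 2.505-fold (log2 ratio 1.32 ± 0.09) and PEX27 by 9.07-fold (log2 ratio 3.18 ± 0.64, SD, n = 3 each), in 3 of 3 libraries. In reads not scaled for length these log2 ratios were 0.59 and 2.51.

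All 10 genes were read in each library, with at least 135 reads, and no value had to be filtered out. Together they took 0.151% ± 0.0304 (SD, n = 3) of the counted reads, namely 0.150%, 0.120% and 0.181% in replicates 1, 2 and 3. The median of the 10 genes was 87.9, 48.2 and 122 RPKM in the 3 libraries, against 44.1, 44.6 and 46.9 RPKM for the median gene. POT1, FOX2, PEX11, ECI1, SPS19 and PXA1 were above the median gene in each library, 6 of 10 against 42.6% of all 5898 genes. FAA2 was below it in each library, 1 of 10 against 42.5% of all genes, and POX1, DCI1 and PXA2 crossed it. FAA2 in replicate 2 (44.47 against 44.57 RPKM) and PXA2 in replicate 3 (47.03 against 46.93 RPKM) nearly met it. POT1 alone exceeded the 75th percentile in each library, 1 of 10 against 20.8% of all genes. Whether these shares of 10 genes differ from those of all genes was not tested.

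In order of mean level the genes ran POT1, PEX11, FOX2, ECI1, SPS19, DCI1, POX1, PXA1, FAA2 and PXA2. Of the 9 neighbouring pairs in that order, 2 had values that did not overlap, POT1 above PEX11 and PXA1 above FAA2. In 2 further pairs, ECI1 over SPS19 and SPS19 over DCI1, the ratio within a library kept its direction in 3 of 3 libraries although the values overlapped. The log2 ratio of ECI1 over SPS19, 0.25 ± 0.30 (SD, n = 3), was still within its spread, and that of SPS19 over DCI1 was 0.54 ± 0.27 (SD, n = 3). The other 5 neighbouring pairs did not differ beyond their spread either, with a ratio that changed direction between libraries.

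Most of the genes had the same order of libraries. Of the 10 genes, 8 were lowest in replicate 2, against 38.2% of 5108 genes with a mean of at least 10 CPM, and 9 were highest in replicate 3, against 38.8%. The same 8 were both, against 23.9% of these genes. In the 2458 genes whose mean CPM lay within the range of the group, 58.5 to 341 CPM, the share was 24.0%. FAA2, highest in replicate 2, and PEX11, lowest in replicate 1, were the exceptions.

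The differences were unequal in size. The highest library exceeded the lowest by more than 2-fold for DCI1 (3.44-fold), SPS19 (2.94-fold), POX1 (2.37-fold) and ECI1 (2.19-fold), 4 of 10 against 25.5% of genes of at least 10 CPM and 11.8% of genes in the same CPM range. At the other end stood PXA1 with 1.31-fold, POT1 with 1.22-fold and FAA2 with 1.11-fold. The coefficient of variation between libraries was 54.5% for DCI1, where counting alone would give 5.98%, and 10.2% for POT1, where it would give 2.15%. Without replicate 2, 0 of the 10 genes differed over 2-fold, against 10.6% of genes of at least 10 CPM. Without replicate 3, 2 did, against 11.5%, and without replicate 1, 4 did, against 17.9%. These shares are over 2 libraries and so lie under the 25.5% over all libraries.

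**Figure D3:**
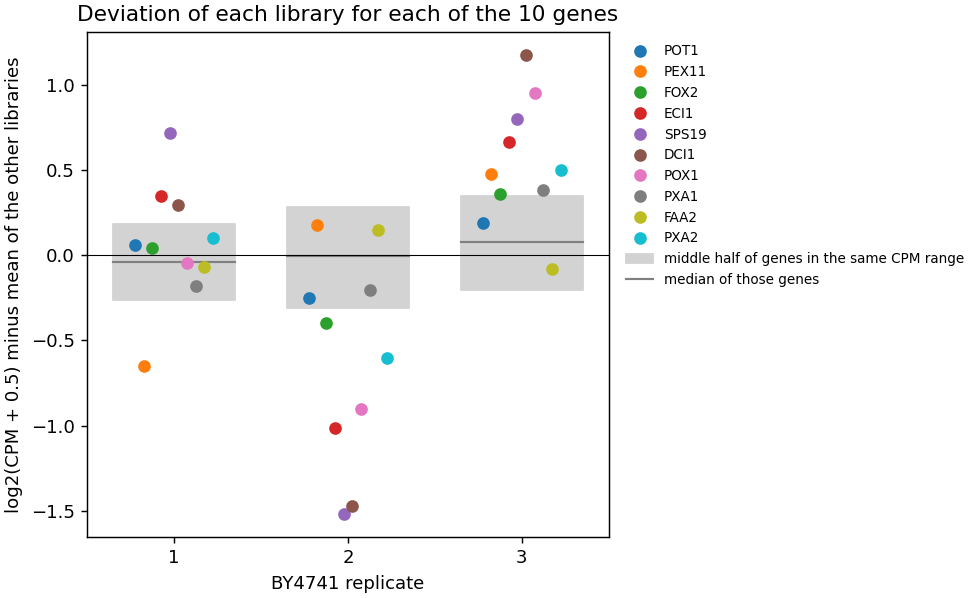
Difference between log2(CPM + 0.5) in a BY4741 library and the mean of the other 2 libraries, for each of the 10 genes. Grey boxes span the middle 50% of the 2458 genes in the same CPM range and grey lines their medians. In replicate 2 the genes spread from 0.18 down to -1.52, with 6 of 10 below the grey box.

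In replicate 2 the median deviation of the 10 genes from the mean of the other libraries was -0.50 on the log2 scale, against -0.01 over 5108 genes, with 8 of 10 below 0. In replicate 3 it was 0.49, against 0.07, with 9 of 10 above 0, and in replicate 1 it was 0.05, against -0.01. The 3 deviations of any gene sum to 0, so low values in replicate 2 and high values in replicate 3 are partly the same fact. SPS19 deviated by -1.52, DCI1 by -1.47, ECI1 by -1.02 and POX1 by -0.90 in replicate 2, while POT1 deviated by -0.25. Replicates 2 and 3 were of like depth, 5181546 and 4581414 reads, and stood at the opposite ends for 9 of the 10 genes, for FAA2 with replicate 2 the higher one. With each library thinned to 4581414 reads the same 4 genes differed over 2-fold, against 26.0% of genes of at least 10 CPM. DCI1 then differed by 3.45-fold and SPS19 by 3.04-fold. Replicate 2 was also the library with the most genes at 0 reads, 98, as given above, and the part of this in the low values was not tested.

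POT1 and SPS19, whose elements begin 188 and 166 bases before the start codon, differed between libraries by 1.22-fold and 2.94-fold. Outside the group, 93 genes of at least 10 CPM hold an oleate response element within 500 bases, and 28 of them, 30.1%, were lowest in replicate 2 and highest in replicate 3, against 23.7% of the genes without one. Their median deviation in replicate 2 was -0.04. For genes outside the group with an Adr1 core in the 300-base window the share was 22.9%. Whether the element or the core has a part in this order of libraries was not tested.

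**Figure D4:**
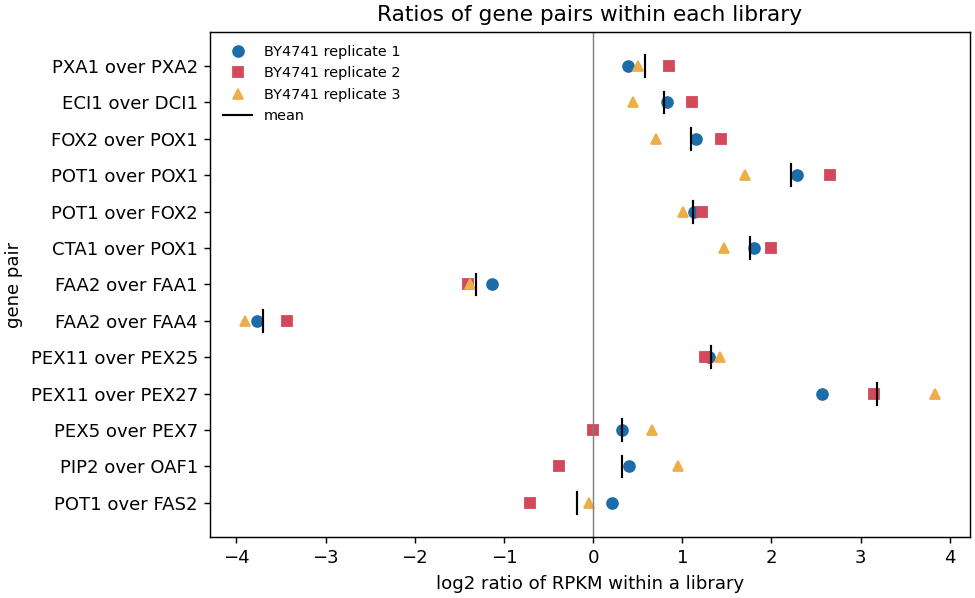
Log2 ratio of RPKM within each BY4741 library for 13 gene pairs, with the mean as a black line. In 10 pairs the 3 libraries lie on the same side of 0, while PEX5 over PEX7, PIP2 over OAF1 and POT1 over FAS2 straddle it.

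Ratios were taken for 13 pairs in all. Of these, 10 had the same direction in 3 of 3 libraries, each with an exact two-sided sign-flip permutation p = 0.25 (adjusted p = 0.325 over the 13 pairs, Benjamini-Hochberg), which is the smallest p that 3 libraries allow. Thiolase ends a turn of degradation and fatty acid synthase carries out synthesis. POT1 over FAS2 had a log2 ratio of -0.18 ± 0.47 (SD, n = 3), with 0.21, -0.70 and -0.05 in replicates 1, 2 and 3. PEX5 and PEX7, the import receptors of the type 1 and type 2 signals, also overlapped, with a log2 ratio of 0.33 ± 0.33 (SD, n = 3).

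The genes of Oaf1 and Pip2 had low levels. OAF1 had 18.8, 24.8 and 21.2 RPKM and PIP2 had 24.9, 19.0 and 41.1 RPKM, both below the median gene in each library. PIP2, which itself holds an oleate response element within 500 bases, was lowest in replicate 2 and highest in replicate 3. The same held for 7 of the 9 oxidation genes with an element and for PXA1, the 1 without. In the other lists it held for 3 of the 9 further genes with an element. The gene of Adr1 stood higher, at 98.4, 99.99 and 117 RPKM. The highest of the 9 regulators was MIG1, the repressor of glucose-repressed genes, at 415 ± 27.2 RPKM, followed by ADR1 at 105 ± 10.4 RPKM, and the lowest were OAF3, a repressor of oleate-responsive genes, at 9.52 ± 3.58 RPKM and OAF1 at 21.6 ± 3.004 RPKM (SD, n = 3 each). Of the list, 5 were above and 4 below the median gene in each library. Among the 5, 1 nearly met it in replicate 3, at 47.08 against 46.93 RPKM.

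The acetyl-CoA made by oxidation leaves the peroxisome as acetylcarnitine or through the glyoxylate cycle. All 5 genes of carnitine acetyl transfer and transport were above the median gene in each library, with a median of 149 RPKM, against 87.4 RPKM for the 10 oxidation genes. YAT1 and YAT2, carnitine acetyltransferases outside the peroxisome, stood at 655 ± 213 and 305 ± 30.1 RPKM, and AGP2, a plasma membrane protein of carnitine uptake, and CRC1, the mitochondrial acetylcarnitine carrier, were lowest at 79.0 ± 19.5 and 80.1 ± 23.8 RPKM (SD, n = 3 each). Of this list, 4 genes were lowest in replicate 2 and highest in replicate 3, namely 2 of 2 with an oleate response element within 500 bases, CRC1 and YAT1, and 2 of 3 without one.

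Of 10 other peroxisomal enzymes and carriers, 8 were above and 2 below the median gene in each library, with a median of 118 RPKM. CIT2, the peroxisomal citrate synthase, led at 1550 ± 350 RPKM, followed by MDH3, the malate dehydrogenase that reoxidises the NADH of the cycle, at 468 ± 80.0 RPKM (SD, n = 3 each). NPY1, an NADH pyrophosphatase, stood at 18.7 ± 0.982 RPKM (SD, n = 3). ANT1, which carries ATP into the peroxisome for the synthetase Faa2, was lowest, with 180, 0 and 44 reads, where the other libraries would place 49.8 reads in replicate 2. An oleate response element lay within 500 bases of CTA1, TES1, IDP3 and MDH3, of which 1 of 4, CTA1, was lowest in replicate 2 and highest in replicate 3, against 2 of 6 genes of the list without one.

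The list of further genes of fatty acid uptake, activation and acyl-CoA binding was led by ACB1, the acyl-CoA binding protein, at 1793 ± 127 RPKM and FAA4 at 543 ± 59.0 RPKM, and FAT1, a transporter of very long chains, and FAA3 were lowest at 16.8 ± 5.41 and 19.96 ± 9.59 RPKM (SD, n = 3 each). Of the 6 genes, 4 were above and 2 below the median gene in each library, and 0 held an oleate response element within 500 bases.

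Genes of the organelle itself lay closer to the middle. Of 19 peroxins of membrane assembly and import, 10 were above and 4 below the median gene in each library, with a median of 71.4 RPKM. PEX22 and PEX19 were highest at 176 ± 31.8 and 145 ± 7.78 RPKM, and PEX9 and PEX15 lowest at 3.13 ± 3.64 and 20.2 ± 7.95 RPKM (SD, n = 3 each). PEX9, an import receptor, had 206, 0 and 16 reads. Of 13 genes of peroxisome division and inheritance, 4 were above and 5 below, with a median of 42.7 RPKM, from INP2 at 7.59 ± 4.08 and INP1 at 13.5 ± 6.53 RPKM to PEX30 at 135 ± 14.0 and FIS1, which also serves mitochondrial fission, at 171 ± 91.2 RPKM (SD, n = 3 each). PEX11 stood at 142 ± 36.1 RPKM (SD, n = 3). Among the peroxins, PEX5, PEX6 and PEX13 held an oleate response element within 500 bases, and 0 of these 3 were lowest in replicate 2 and highest in replicate 3, against 3 of 16 without one.

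**Figure D5:**
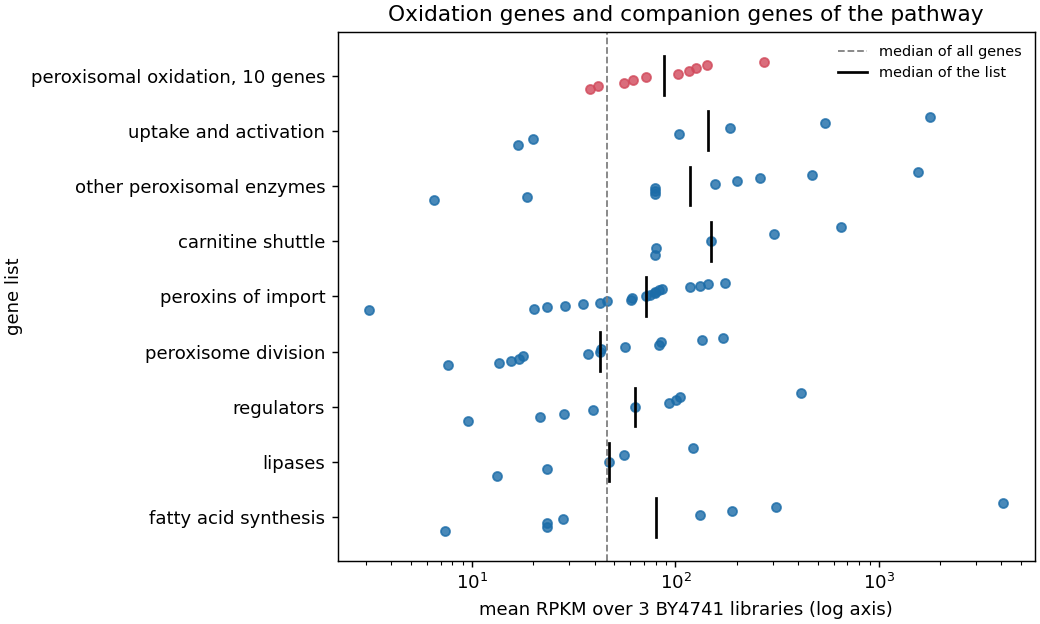
Mean RPKM over 3 BY4741 libraries (log axis) of each of the 10 oxidation genes and of the genes in 8 companion lists, with list medians as black lines and the median of all genes, 45.9 RPKM, as a dashed line. The 10 oxidation genes span 38.1 to 272 RPKM, a narrower range than that of the lists of synthesis, uptake or other peroxisomal enzymes.

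Storage lipases and fatty acid synthesis flank the pathway. Of 5 lipases, TGL4, a triacylglycerol lipase, was above the median gene in each library at 123 ± 25.4 RPKM, TGL5 followed at 55.7 ± 17.9 RPKM, and the sterol ester hydrolases YEH2 and YEH1 were lowest at 13.2 ± 7.69 and 23.3 ± 5.34 RPKM (SD, n = 3 each). Of 8 genes of synthesis, elongation and desaturation, 4 were above and 4 below. OLE1, the desaturase, stood at 4072 ± 546 RPKM and FAS2, a subunit of fatty acid synthase, at 313 ± 76.8 RPKM, against 7.38 ± 1.39 RPKM for HFA1, the mitochondrial acetyl-CoA carboxylase, and 23.3 ± 16.6 RPKM for the elongase ELO3 (SD, n = 3 each). Over the 8 lists, 41 of 75 genes were above and 23 below the median gene in each library, and 10 held an oleate response element within 500 bases, against 9 of the 10 oxidation genes.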

How the data were processed

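Per the file contents, each library's deposited table holds raw counts, whole numbers per feature that the authors had not normalized. The submitters' processing notes name FastQC, TopHat, HTSeq and DESeq2. No source used here gives their versions, the genome build or whether counting used strand, so reads of overlapping genes may not have been told apart. CPM and RPKM were computed from library totals and R64 coding lengths, and sequences and coordinates come from RefSeq's S288C reference R64. Deviations used log2 of CPM plus 0.5. BY4741 has no group to be tested against, so genes past a level or a fold were counted beside the same share of all genes. The members, lists and pairs were chosen with earlier results of these data known. Named were the members, genes of pairs, the 2 highest and 2 lowest of each list, genes overlapping a member and, after their values or sequences were seen, SPS18, YNL203C and carriers of elements. Shares within the same CPM range, zero counts, the 500-base window and the looser end signal were also added after the data were seen. Only the CPM, deviation and fold steps were tested on simulated counts, in which unchanged genes were set to vary less than in these libraries. The sequence searches and pair ratios were not tested in this way. Depth was 4581414 to 18707708 reads. Intervals and the limit on 0 reads (3 reads) cover counting error only, since reads are not independent molecules. Alternatives were TMM (edgeR 4.0.16) and DESeq2 1.42.0 scaling, thinning, length, filters, thresholds and leaving out libraries, run in R 4.3.3 and Python 3.11.15 with SciPy 1.17.1 and Biopython 1.88.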

Additional observations from a re-analysis of the deposited data

How the results depend on the processing

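Of 175 alternative values of 40 results, 155 kept their direction and stayed within the spread between libraries or within 1.5 times the count. With the 75th percentile in place of the median gene, the genes above it in each library were 1 of the oxidation genes, 4 of the other peroxisomal enzymes, 3 of the carnitine list, 2 of import, 1 of the regulators and 0 of division and of the lipases. Leaving out each library in turn, 0 to 4 of the 10 genes differed over 2-fold. The count was 4 without replicate 1, 0 without replicate 2 and 2 without replicate 3. Of genes of at least 10 CPM, 17.9%, 10.6% and 11.5% did. The log2 ratio of POT1 over FAS2 ran from -0.38 to 0.081 and was above 0 without replicate 2, and the lipases above the median gene numbered 1 to 2. On read counts not scaled for length, the log2 ratio was 0.011 for POT1 over FOX2 (1.12 per kb), 1.38 for POT1 over POX1, 1.22 for CTA1 over POX1, 0.59 and 2.51 for PEX11 over PEX25 and PEX27, 1.03 for PEX5 over PEX7 and -2.36 for POT1 over FAS2, all farther from the values per kb than 1 SD between libraries. In CPM, 1 neighbouring pair of the 10 genes did not overlap, against 2 per kb. With any residue before a basic residue and leucine, 5 coding ends matched, against 2. TMM and DESeq2 scaling shifted whole libraries by -0.037 to 0.029 on the log2 scale and left 4 of the 10 genes over 2-fold. Of genes of at least 10 CPM, 25.2% and 25.3% were then over 2-fold. No paired analysis was possible because the strains share replicate numbers but no feature identifiers. Depth limits replicates 2 and 3 most.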
